A study of Mus musculus with 16 samples.

Results

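This account covers the genes of mouse chromosome 18, which carries both Apc and Smad4, in RNA sequencing of sorted intestinal tumour cells. Members were chosen by position and level: every gene that RefSeq places on GRCm38 chromosome 18 and whose mean level over the 16 libraries was at least 8 CPM (counts scaled to the same total in every library), leaving out the clustered protocadherins (symbols starting Pcdha, Pcdhb or Pcdhg). Of 36528 gene IDs, 788 lay on the chromosome and 284 became members. A further 446 stayed under 8 CPM and 58 were clustered protocadherins. By RefSeq's classes, 275 members are protein-coding genes, 8 are long non-coding RNAs and 1 is a microRNA gene. Among those near the level limit, Eno1b (8.95 CPM) and Eif3j2 (9.003 CPM) stood just inside it, and just outside it were Bvht (7.51 CPM), Elac1 (7.32 CPM) and Kctd1 (7.21 CPM). The group mean was at least 8 CPM in all 4 groups for 257 members, and no member had it in a single group only.

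The libraries came from mouse tumours whose labels give the genotypes AKVPL and AKVPSL, and each tumour type was sorted into GFP+ and GFP- cells. The series' design text names the sorted cells by Lgr5, a receptor of crypt stem cells. This gave 4 groups of 4 libraries: AKVPL GFP+, AKVPSL GFP+, AKVPL GFP- and AKVPSL GFP-. The labels do not spell out the letters of the genotypes, the animals' strain, age or the promoter behind GFP, and they do not say that replicates came from separate animals. The p-values therefore speak only of the scatter among these libraries, part of which may be technical. Titles name the colon, whereas the tissue field names the small intestine for 15 libraries and the colon for 1 (AKVPSL GFP- replicate 1).

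Apc is the scaffold of the complex that marks beta-catenin for destruction, and its loss starts most intestinal tumours by leaving WNT signalling switched on. Smad4 is the shared partner of the receptor-activated SMAD proteins and carries TGF-beta and BMP signals into the nucleus. The chromosome also holds other parts of both pathways, among them the casein kinase gene Csnk1a1, the WNT regulator Mcc, the signal carrier Smad2 and the inhibitor Smad7. Apart from them it is an ordinary mix of housekeeping, epithelial, immune and stromal genes, spread along its whole length. DNA was not measured here, so the number of copies of the chromosome in these cells is not known.

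Library totals ran from 10881115 to 41601600 counts, and all 284 members passed the low-count filter, among 18072 genes tested. In every group the 13 epithelial marker genes had summed levels near each other, with means from 10790 to 12680 CPM and none at 0. Single epithelial markers differed between the genotypes (edgeR, adjusted p under 0.05). In AKVPSL 3 were called higher and 4 lower than in AKVPL in GFP+ cells, and 7 higher and 1 lower in GFP- cells. Markers of other cell types were present in all groups and differed between them. The 12 leukocyte markers summed to 585 ± 283 CPM (SD, n = 4) in AKVPL GFP+ and 132 ± 81.1 in AKVPSL GFP+ libraries, against 5396 ± 1583 in AKVPL GFP- and 1451 ± 974 in AKVPSL GFP-. The 10 fibroblast markers summed to 902 ± 291, 604 ± 373, 7211 ± 2130 and 2377 ± 518 CPM in the same order, and the 8 endothelial markers to 92.3 ± 17.2, 70.7 ± 13.9, 528 ± 162 and 242 ± 158 CPM. In bulk samples such as these, fewer cells of a type and less RNA per cell cannot be told apart.

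Most genes of chromosome 18 were more abundant in AKVPSL than in AKVPL tumour cells, in both sorts. In GFP+ cells 201 of the 284 members (70.8%) rose, 18 (6.34%) fell and 65 did not pass the test (edgeR, adjusted p under 0.05). Over all genes tested, which include those under 8 CPM, 24.9% were called higher and 28.1% lower in that comparison. Among the 10403 other autosomal genes of at least 8 CPM, 30.4% were called higher and 25.3% lower. In GFP- cells 183 members (64.4%) rose, 31 (10.9%) fell and 70 did not pass. There 32.0% of all genes were called higher and 30.7% lower, and 40.1% and 27.0% of the other autosomal genes of at least 8 CPM. The split in GFP- cells was 132 higher and 54 lower when libraries were scaled on the epithelial markers. In 196 members the 4 AKVPSL GFP+ libraries all lay above the 4 AKVPL GFP+ libraries and in 17 they all lay below, where 25.0% and 26.3% of all genes did so. In GFP- cells the same was true of 171 and 27 members, with 27.3% and 25.9% for all genes. The rise was seen with no overlap in both sorts for 159 members, as it was for 16.7% of all genes.

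The size of the shift was close to 1.4-fold. The median log2 difference between the genotypes was 0.54 over the members and 0.04 over the 10403 other autosomal genes of at least 8 CPM in GFP+ cells, a gap of 0.50 (1.42-fold). In GFP- cells the medians were 0.56 and 0.12, a gap of 0.44 (1.36-fold). From here on, the relative difference of a gene is its log2 difference minus that median of the other autosomal genes. In GFP+ cells 240 members (84.5%) had a relative difference above 0, and the middle 50% of all members lay between 0.24 and 0.75. For the other autosomal genes that range was -0.37 to 0.35. In GFP- cells 206 members (72.5%) were above 0, and the middle range of all members was wider, from -0.03 to 0.87. The spread within the chromosome was large beside the shift itself: 10% of members had a relative difference under -0.21 in GFP+ and under -0.64 in GFP- cells.

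The shift was seen in each library and not only in the group means. For each library the members' median level was set against the other autosomal genes, both relative to the mean of all 16 libraries. It was -0.25, -0.24, -0.27 and -0.29 log2 units in the AKVPL GFP+ libraries and 0.26, 0.24, 0.32 and 0.26 in the AKVPSL GFP+ libraries. In AKVPL GFP- it was -0.26, -0.29, -0.28 and -0.24, and in AKVPSL GFP- 0.16, 0.18, 0.11 and 0.19. The 8 AKVPL libraries all lay below the 8 AKVPSL libraries, and among the latter every GFP- library lay below every GFP+ library. The share of all counts that fell in the 284 members moved in step. It was 2.28 ± 0.07% (SD, n = 4) in AKVPL GFP+ and 3.32 ± 0.08% in AKVPSL GFP+, a ratio of 1.46. In GFP- cells it was 2.45 ± 0.05% and 3.03 ± 0.12%, a ratio of 1.23. Without Cd74, a leukocyte gene with high counts in AKVPL GFP-, these shares were 2.20 ± 0.04% and 2.99 ± 0.13%, a ratio of 1.36.

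**Figure D1:**
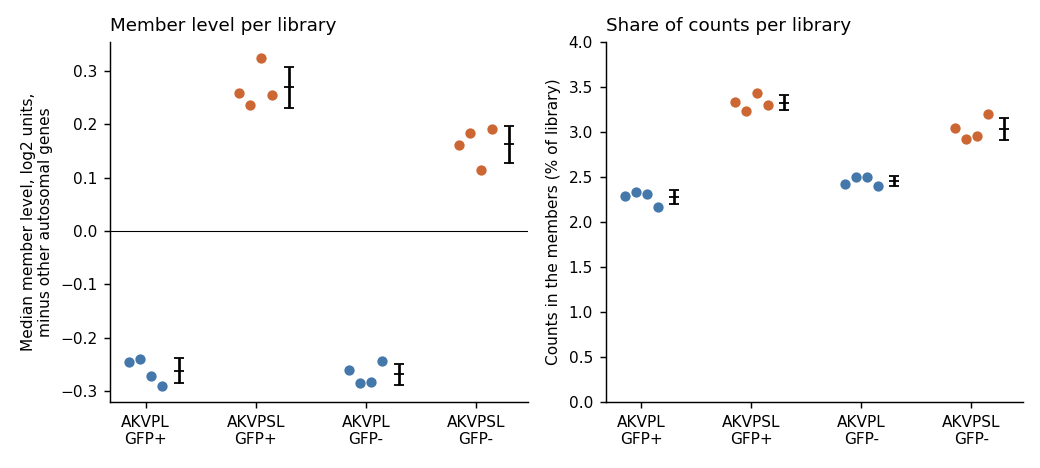
Left, median level of the chromosome 18 members in each library (log2 units, relative to other autosomal genes and to the mean of all libraries); right, percentage of each library's counts in the members. Points are libraries and bars the mean with its SD (n = 4); the 8 AKVPL libraries lie between -0.29 and -0.24 and the 8 AKVPSL libraries between 0.11 and 0.32 in the left panel.

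Chromosome 18 was not alone in this. Each autosome was measured in the same way, against the genes of all the other autosomes, so the reference differed from chromosome to chromosome. Chromosome 18 had the second highest value of the 19 in both sorts. Chromosome 5 stood above it (0.56 in GFP+ and 0.54 in GFP- cells), and chromosomes 15 (0.40 and 0.35) and 12 (0.35 and 0.36) came next. At the other end, chromosome 7 was at -0.26 in GFP+ cells and chromosome 2 at -0.27 in GFP- cells. Between GFP+ and GFP- cells the same measure was 0.02 for chromosome 18 in AKVPL, where the other 18 autosomes ran from -0.04 to 0.03. In AKVPSL it was 0.12, above the range of the other 18 autosomes, which ran from -0.06 to 0.07.

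**Figure D2:**
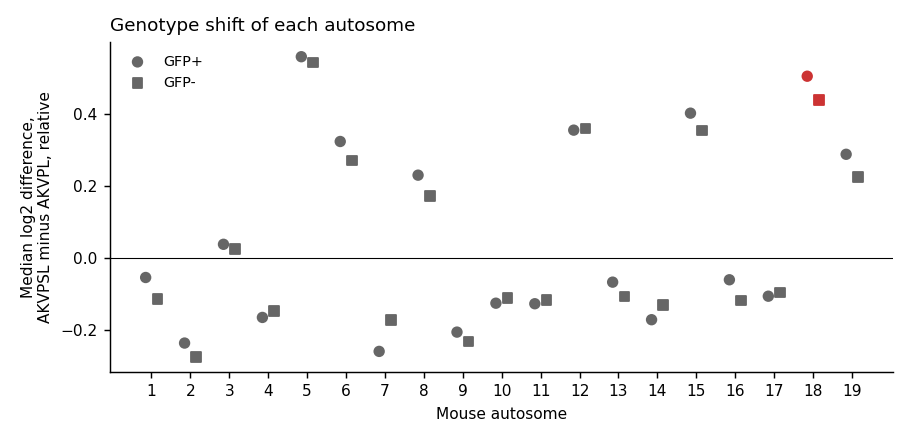
Median log2 difference between AKVPSL and AKVPL for the genes of each autosome (at least 8 CPM), minus the median of the genes on all the other autosomes. Circles are GFP+ cells, squares GFP- cells, and chromosome 18 is red. It stands at 0.50 and 0.44, below chromosome 5 and above chromosomes 12 and 15.

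The rise ran along the whole chromosome in GFP+ cells and along most of it in GFP- cells. In windows of 10 Mb the median relative difference lay between 0.39 and 0.61 in GFP+ cells and between 0.11 and 0.62 in GFP- cells, above 0 in each of the 10 windows. Of these windows 5 held fewer than 20 members, and the last held 1 (Tmx3). The window from 30 to 40 Mb, which holds Apc, was the fullest with 80 members, of which 65 rose and 2 fell in GFP+ cells and 64 rose and 2 fell in GFP- cells. The window from 70 to 80 Mb, which holds Smad4, had 31 members, of which 20 rose and 4 fell in GFP+ and 18 rose and 5 fell in GFP- cells. The running median over 15 neighbouring members stayed above 0 in GFP+ cells. It was lowest around Synpo (0.16, near 60.6 Mb), a stretch that includes the leukocyte genes Cd74 and Csf1r and the fibroblast gene Pdgfrb, and highest around Myo7b (0.78, near 32.0 Mb). In GFP- cells it ran from -0.03 around Rbfa (near 80.2 Mb) to 1.00 around Dnajc18 (near 35.7 Mb).

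**Figure D3:**
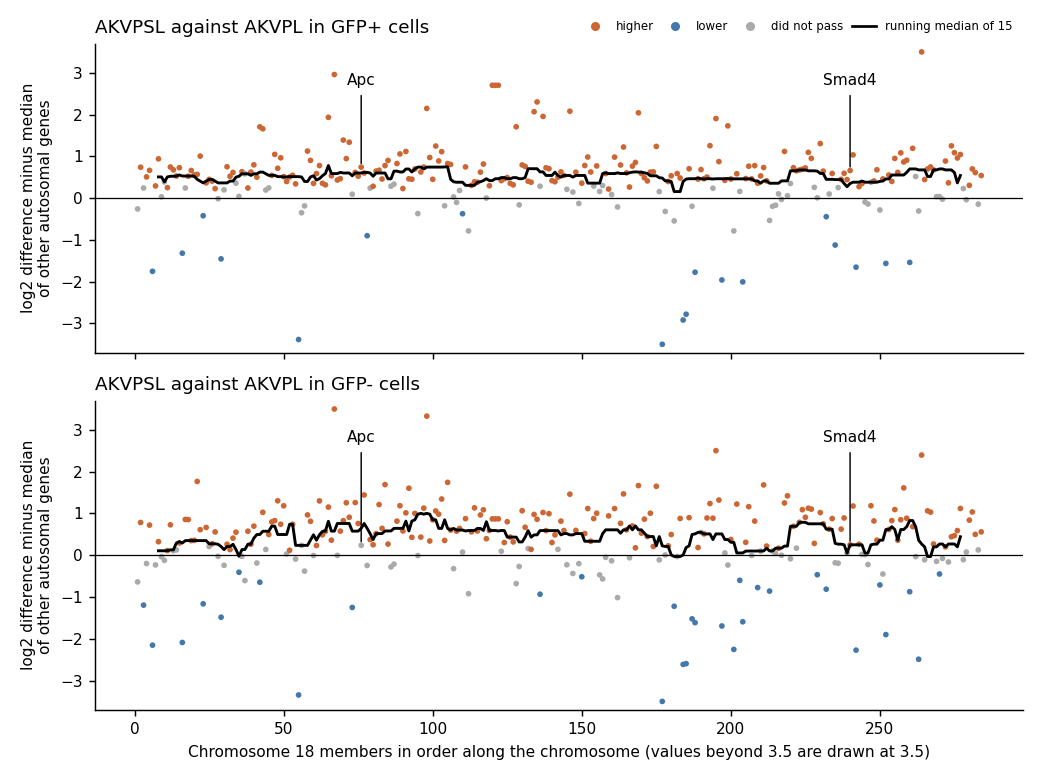
Relative log2 difference between AKVPSL and AKVPL for each of the 284 members, in order along the chromosome, in GFP+ (top) and GFP- cells (bottom); colours give the edgeR call and the black line the running median of 15 members. The line stays between 0.16 and 0.78 in GFP+ and between -0.03 and 1.00 in GFP- cells, while single genes lie far from it on both sides.

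Apc (Gene ID 11789, chromosome 18, 34220297 to 34322190) rose in GFP+ cells. It stood at 190.1, 206, 171 and 145 CPM in the AKVPL GFP+ libraries and at 284, 243, 393 and 303 CPM in the AKVPSL GFP+ libraries, with no overlap. The log2 difference was 0.78 ± 0.18 (SE; edgeR adjusted p = 0.00156). Among GFP- libraries it stood at 126, 96.8, 106 and 161 CPM in AKVPL and 159, 157, 116 and 196 CPM in AKVPSL, and these groups overlapped. The difference there was 0.36 ± 0.18 (edgeR adjusted p = 0.0915), which passed the threshold without AKVPL GFP- replicate 4 (0.52), without AKVPSL GFP- replicate 3 (0.49) and with a replicate block (0.36). The difference between the sorts in the genotype effect on Apc did not pass its own test under any setting. A count per gene does not resolve an edited base or a missing exon.

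Most neighbours of Apc rose too. Of the 5 members on each side, between 32837188 and 34624863 on the chromosome, 7 rose and 1 fell in GFP+ cells, with a median difference of 0.60. In GFP- cells 8 rose and 1 fell, with a median of 0.76. Over all members 70.8% rose in GFP+ and 64.4% in GFP- cells, so these counts do not set the neighbours of Apc apart. Srp19, a subunit of the signal recognition particle and the next member after Apc, rose by 0.64 ± 0.14 in the GFP+ sort (edgeR adjusted p = 0.000693) and by 1.57 ± 0.14 in the GFP- sort (2.61e-08). Stard4, a cholesterol carrier, was 1.37 ± 0.12 and 1.03 ± 0.12 higher. Reep5, which shapes the endoplasmic reticulum and lies just beyond Srp19, went the other way in GFP+ cells: 147, 124, 148 and 184 CPM in AKVPL against 88.9, 80.2, 78.9 and 82.9 CPM in AKVPSL, a difference of -0.86 ± 0.12 (edgeR adjusted p = 5.17e-06). In GFP- cells its difference was -0.12 ± 0.12 and short of the threshold. It passed there with the other-autosome scaling (-0.27) and with the epithelial scaling (-0.44), which set libraries level on the other autosomal genes and on the epithelial markers. Nrep, a neuronal regeneration protein, was the neighbour that fell in GFP- cells (-1.13 ± 0.17, edgeR adjusted p = 1.60e-05). Its GFP+ difference was 0.13 ± 0.17, and the difference between the sorts passed its own test (1.26, edgeR adjusted p = 0.00169).

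Smad4 (Gene ID 17128, chromosome 18, 73634790 to 73703791) stood at 156, 157, 149 and 149 CPM in AKVPL GFP+ and 236, 222, 283 and 249 CPM in AKVPSL GFP+ libraries. These groups did not overlap, and the difference was 0.70 ± 0.11 (edgeR adjusted p = 2.11e-05), beside a median of 0.54 over all members. The GFP- libraries held 126, 136, 133 and 159 CPM in AKVPL and 168, 150.1, 189 and 211 CPM in AKVPSL, where the highest AKVPL library exceeded the lowest AKVPSL library. The difference was 0.37 ± 0.11 (edgeR adjusted p = 0.00521), and it was short of the threshold with the other-autosome scaling (0.22) and the epithelial scaling (0.04). Relative to the other autosomal genes, Smad4 was 0.66 higher in GFP+ and 0.25 higher in GFP- cells. The difference between the sorts missed the threshold in its own test. It passed under 4 other settings, with values from 0.40 to 0.67, the last with the epithelial scaling.

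The members next to Smad4 moved unevenly. Of the 5 on each side, between 70240429 and 74772698, 6 rose and 2 fell in GFP+ cells (median 0.35), and 4 rose and 1 fell in GFP- cells (median 0.16). Over all members 70.8% rose in GFP+ and 64.4% in GFP- cells. Me2, the mitochondrial malic enzyme and the next member after Smad4, rose by 1.07 ± 0.09 in GFP+ (edgeR adjusted p = 1.28e-08) and 1.30 ± 0.09 in GFP- cells (1.24e-09). Mex3c, an RNA-binding ubiquitin ligase on the other side, rose by 0.48 ± 0.15 in GFP+ cells (edgeR adjusted p = 0.0126). Mapk4, an atypical MAP kinase 2 places beyond Smad4, fell in both sorts, from 13.6, 13.5, 10.8 and 18.2 to 3.00, 3.18, 6.63 and 5.51 CPM in GFP+ cells (-1.62 ± 0.31) and by 2.15 in GFP- cells. Dynap, a small membrane protein gene, fell in GFP+ cells (-1.09 ± 0.29, edgeR adjusted p = 0.00365) at levels of only 4.57 and 2.18 CPM.

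**Figure D4:**
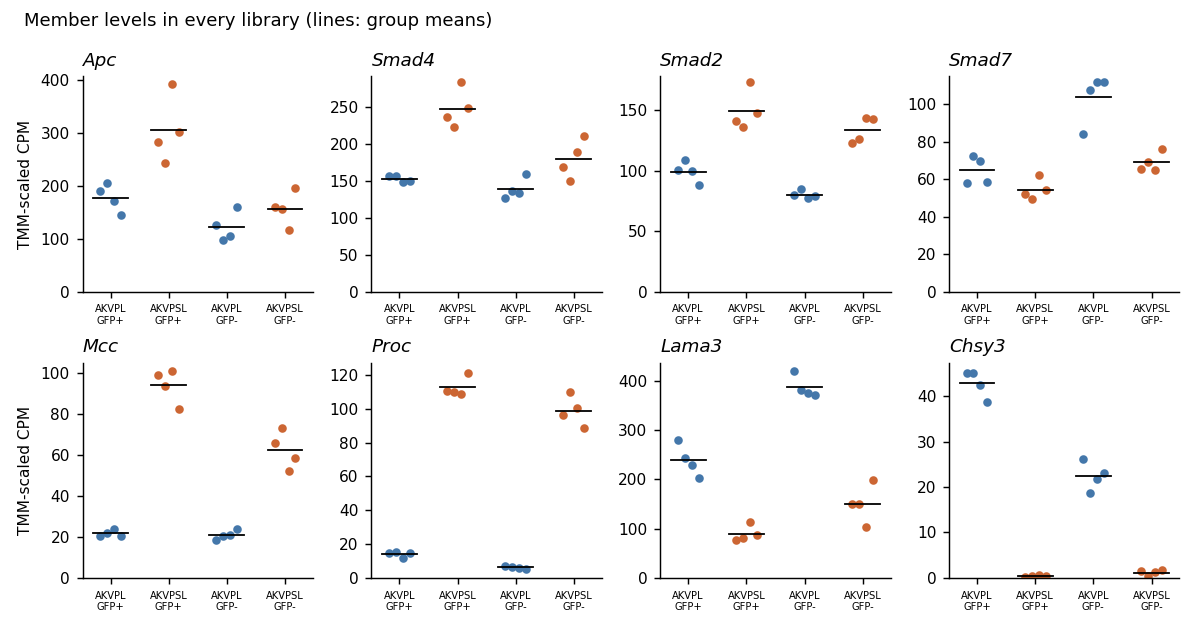
TMM-scaled CPM of 8 members in each of the 16 libraries; points are libraries, lines group means (n = 4), blue AKVPL and orange AKVPSL. Apc, Smad4, Smad2, Mcc and Proc are higher in AKVPSL GFP+ with no overlap, Lama3 and Chsy3 are lower, and Smad7 overlaps between the genotypes in GFP+ cells.

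Members were then grouped by role, from lists written from knowledge of the genes. The counts of each list stand beside the shares over all 284 members, of which 70.8% rose and 6.34% fell in GFP+ cells. In GFP- cells 64.4% rose and 10.9% fell. A list near these shares shows no more than the chromosome-wide shift. Of the 8 members in the list of WNT and adhesion genes, 7 rose and 1 fell in GFP+ cells, and 6 rose and 1 fell in GFP- cells, with median differences of 0.67 and 0.76. Mcc, a negative regulator of WNT signalling found mutated in colorectal cancers (Gene ID 328949, chromosome 18, 44425060 to 44812182), stood out: it went from 20.4, 21.8, 23.9 and 20.7 CPM in AKVPL GFP+ to 99.3, 93.8, 101 and 82.6 CPM in AKVPSL GFP+. The groups were far apart, with a difference of 2.12 ± 0.11 (edgeR adjusted p = 2.85e-11), and in GFP- cells it rose by 1.58 ± 0.11. Cxxc5, which binds dishevelled, rose by 1.28 ± 0.11 and 1.18 ± 0.11. The casein kinases Csnk1a1, which primes beta-catenin for destruction, and Csnk1g3 rose by 0.50 ± 0.07 and 0.80 ± 0.08 in GFP+ cells. Ctnna1, the alpha-catenin of adherens junctions, rose more in GFP- (0.70 ± 0.09) than in GFP+ cells (0.26 ± 0.09). Its GFP+ call ended when AKVPL GFP+ replicate 4 (0.21) was left out, and when AKVPSL GFP+ replicate 3 was (0.22), and the difference between the sorts (-0.44, edgeR adjusted p = 0.0209) ended under 5 other settings. The member that fell was Tcf4, which encodes an E protein and not the WNT factor of the same nickname, by 0.41 in GFP+ and 0.69 in GFP- cells.

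Of the 6 members in the list of SMAD pathway and related genes, 4 rose and 1 fell in GFP+ cells and 4 rose and 2 fell in GFP- cells. Smad2, the receptor-activated SMAD of TGF-beta signalling (Gene ID 17126, chromosome 18, 76241090 to 76311748), stood at 100.1, 108, 99.8 and 88.3 CPM in AKVPL GFP+ against 141, 136, 173 and 148 in AKVPSL GFP+, and at 79.5, 84.97, 77.01 and 79.1 in AKVPL GFP- against 123, 126, 144 and 142 in AKVPSL GFP-. Both pairs of groups were separate, with differences of 0.59 ± 0.09 and 0.74 ± 0.09. Nedd4l, a ubiquitin ligase that acts on SMAD proteins, rose by 0.81 ± 0.08 and 0.94 ± 0.08 (edgeR adjusted p = 9.98e-08 and 1.68e-08). Smad7, the inhibitory SMAD and itself a target of the pathway (Gene ID 17131, chromosome 18, 75367365 to 75395935), was among the few members that fell in GFP- cells, from 83.96, 108, 112 and 112 to 65.7, 69.2, 64.9 and 76.4 CPM with no overlap (-0.59 ± 0.11, edgeR adjusted p = 0.000143). In GFP+ cells its difference was -0.25 ± 0.11 and missed the threshold (edgeR adjusted p = 0.0642). It passed under 7 other settings, with values from -0.31 to -0.25, 4 of them leaving out AKVPL GFP+ replicate 1 or 4, AKVPSL GFP+ replicate 3 or AKVPL GFP- replicate 1. Zbtb7c, a zinc-finger protein, fell in both sorts, with differences of -1.53 ± 0.23 and -1.78 ± 0.24. With the epithelial scaling 2 of the 6 rose and 2 fell in GFP- cells, and the median difference there went from 0.32 to -0.01.

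The intestinal epithelium list was divided. Of its 11 members 4 rose and 4 fell in GFP+ cells, and 1 rose and 5 fell in GFP- cells. Slc12a2, the sodium-potassium-chloride cotransporter of crypt cells (Gene ID 20496, chromosome 18, 57878512 to 57946821), rose from 576, 646, 601 and 543 to 1387, 1109, 1756 and 1463 CPM in GFP+ cells and from 275, 229, 225 and 255 to 847, 703, 801 and 1015 CPM in GFP- cells. The differences were 1.27 ± 0.13 and 1.77 ± 0.13, and neither pair of groups overlapped. Lama3, the laminin alpha chain of the epithelial basement membrane (Gene ID 16774, chromosome 18, 12333417 to 12583013), went from 280.0, 244, 230.2 and 202 to 76.98, 81.4, 113 and 86.6 CPM in GFP+ and from 419.7, 381, 375 and 371 to 149.7, 151, 104 and 198 CPM in GFP- cells. These were falls in both sorts, with differences of -1.42 ± 0.16 and -1.36 ± 0.16. Onecut2, a transcription factor, and Gata6, a zinc-finger factor of gut endoderm, also fell in both sorts. Their differences were -1.97 and -1.47 for Onecut2 and -0.39 and -1.04 for Gata6. Slc14a1, a urea transporter, stood at 55.7, 42.8, 44.6 and 69.00 CPM in AKVPL GFP- against 9.67, 11.6, 8.46 and 11.3 in AKVPSL GFP- libraries, 5.16-fold lower. Its GFP+ levels overlapped (-0.27 ± 0.16), and the difference between the sorts was 2.09 ± 0.23 (edgeR adjusted p = 7.90e-06). Dsg2, a desmosomal cadherin, rose in GFP+ cells (0.67 ± 0.15), while its GFP- groups overlapped (0.10 ± 0.15).

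Genes of the cell cycle rose for the most part, as the members of the chromosome did. Of 12 members 11 rose in GFP+ and 9 in GFP- cells, and none fell. With the epithelial scaling 6 rose in GFP- cells and their median difference was 0.34 in place of 0.67, and none fell in either sort under the 4 other scalings. Cdc25c, the phosphatase that switches on the mitotic kinase, rose from 3.72, 4.30, 3.72 and 3.89 to 18.8, 13.7, 8.59 and 13.9 CPM in GFP- cells, a difference of 1.81 ± 0.20, and by 0.81 ± 0.19 in GFP+ cells. Kif20a, a kinesin of cytokinesis, rose by 1.34 ± 0.12 in GFP- and 0.70 ± 0.12 in GFP+ cells. Both moved more in GFP- cells (differences between the sorts -1.0 and -0.63, edgeR adjusted p = 0.016 and 0.015), a call that ended with the epithelial scaling (-0.68 and -0.31) and on log2(RPKM + 1) values (-0.52 and -0.46). Mapre2, a microtubule end-binding protein, rose by 1.70 ± 0.11 in GFP+ and 1.15 ± 0.11 in GFP- cells. Rttn, a centriole protein, did not pass in either sort (-0.11 and 0.25), though it did in GFP- cells without AKVPSL GFP- replicate 3 (0.34).

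Growth signalling genes were mixed. Of 8 members 5 rose and 1 fell in GFP+ cells, and 3 rose and 2 fell in GFP- cells. The median difference was 0.51 in GFP+ and 0.02 in GFP- cells, and the latter was below 0 under all 4 other scalings (-0.30 to -0.08). Spry4, a feedback inhibitor of RAS-ERK signalling (Gene ID 24066, chromosome 18, 38586247 to 38601347), stood at 23.4, 32.4, 32.6 and 18.7 CPM in AKVPL GFP+ and 139, 109.8, 108 and 105 CPM in AKVPSL GFP+ libraries, 4.30-fold apart. In GFP- cells the values were 26.3, 30.7, 35.3 and 36.7 and 89.1, 63.3, 53.6 and 69.6 CPM, a smaller rise of 1.10 ± 0.18, and the difference between the sorts was 1.00 ± 0.25 (edgeR adjusted p = 0.0102). Nr3c1, the glucocorticoid receptor, rose from 41.3, 44.4, 40.3 and 39.2 to 146, 137, 212 and 161 CPM in GFP+ cells (1.99 ± 0.16), also further than in GFP- cells (1.15 ± 0.16; difference 0.85 ± 0.22, edgeR adjusted p = 0.0125). Hbegf, an EGF receptor ligand, rose by 0.84 ± 0.20 and 0.73 ± 0.20. Egr1, an immediate early factor that responds to growth signals and to tissue handling, differed by 0.37 ± 0.15 in GFP+ cells with overlapping groups (edgeR adjusted p = 0.0516). It passed under 10 of the other settings there, among them leaving out AKVPL GFP+ replicate 2 (0.45) or 3 (0.47), AKVPSL GFP+ replicate 1 (0.47) or 2 (0.46), or AKVPSL GFP- replicate 1 (0.39), 3 (0.37) or 4 (0.39). Map3k8 rose in GFP+ cells by 0.54 ± 0.16 with 1 AKVPL library above the lowest AKVPSL library.

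Translation and mitochondrial genes gave the most even picture. Of 14 members for translation and RNA processing 13 rose in GFP+ and all 14 in GFP- cells, with median differences of 0.74 and 1.01. Nars, the asparaginyl-tRNA synthetase, went from 165, 190.2, 171 and 172 to 427, 355, 454 and 466 CPM in GFP- cells (1.29 ± 0.09) and rose by 0.80 ± 0.09 in GFP+ cells. Polr2d, an RNA polymerase II subunit, rose by 1.42 ± 0.10 in GFP- and 0.82 ± 0.10 in GFP+ cells, and the ribosomal protein gene Rps14 by 1.00 ± 0.16 and 0.52 ± 0.16. Hars2, the mitochondrial histidyl-tRNA synthetase, was the member that did not rise in GFP+ cells (0.04 ± 0.11), and its rise in GFP- cells (0.52 ± 0.11) ended with the epithelial scaling (0.20). Of 8 mitochondrial members 7 rose in each sort, with medians of 0.84 and 1.21. Atp5a1, the alpha subunit of ATP synthase (Gene ID 11946, chromosome 18, 77773768 to 77782869), stood at 879, 913, 917 and 905 CPM in AKVPL GFP+ and 1854, 1758, 1636 and 1698 CPM in AKVPSL GFP+, 1.92-fold higher. Hspa9, a mitochondrial chaperone, rose by 1.09 ± 0.09 and 1.31 ± 0.09, and its partner Grpel2 by 1.29 ± 0.09 and 1.36 ± 0.09. Acaa2, a thiolase of fatty acid oxidation, did not rise (-0.11 and -0.10) and was lower in GFP- cells with the other-autosome (-0.25) and epithelial scaling (-0.41).

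Most immune and stromal members that moved were lower in AKVPSL GFP- cells. Cd74, the invariant chain of MHC class II (Gene ID 16149, chromosome 18, 60803849 to 60812652), stood at 2073, 2976, 3301 and 1356 CPM in AKVPL GFP- and 334, 261, 688 and 444 CPM in AKVPSL GFP- libraries, 5.62-fold lower. In GFP+ cells it stood at 111, 177, 294 and 133 and 11.7, 17.9, 29.2 and 38.5 CPM, a difference of -2.88 ± 0.46. Csf1r, the growth factor receptor of macrophages, differed by -1.74 ± 0.57 in GFP+ and -1.49 ± 0.55 in GFP- cells (edgeR adjusted p = 0.0201 and 0.0298). Its GFP+ call ended with AKVPL GFP+ replicate 3 left out (-1.32) and with AKVPSL GFP+ replicate 2 left out (-1.58), and its GFP- call with AKVPL GFP- replicate 2 (-1.43) or 3 (-1.44), AKVPSL GFP- replicate 1 (-1.23) or its replicate 2 (-1.23) left out. The coreceptor gene Cd14 missed the threshold in both sorts (-0.75 and -0.80). In GFP- cells it passed under 9 other settings, among them without AKVPL GFP- replicate 4 (-0.96) and without AKVPSL GFP- replicate 3 (-1.21), and in GFP+ cells with only the compared groups fitted (-0.75). Of the 7 members in the death and immune list 3 fell and 2 rose in GFP+ and 5 fell and 1 rose in GFP- cells. Pmaip1, the BH3-only protein Noxa, fell in GFP- cells (-0.73 ± 0.22). Its GFP+ difference of -0.50 missed the threshold and passed under 6 other settings, among them without AKVPL GFP+ replicate 1 (-0.59) or 4 (-0.67).

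Pdgfrb, the receptor of fibroblasts and pericytes, stood at 91.7, 72.00, 98.3 and 74.5 CPM in AKVPL GFP- and 35.1, 26.3, 27.1 and 38.98 CPM in AKVPSL GFP- libraries with no overlap (-1.40 ± 0.36). It was under 10 CPM in every GFP+ library. Piezo2, a mechanosensitive channel, and Colec12, a scavenger receptor, were also low in GFP+ cells and fell in GFP- cells, with differences of -2.13 ± 0.41 and -1.97 ± 0.39. In GFP+ cells Piezo2 did not pass (-0.75) except without AKVPSL GFP+ replicate 4 (-1.31). Colec12 was called lower there (-1.28, edgeR adjusted p = 0.0168), a call that ended with AKVPL GFP+ replicate 3 (-0.98), AKVPSL GFP+ replicate 1 (-0.98) or its replicate 2 (-1.15) left out. The leukocyte marker sums given above were lower in AKVPSL than in AKVPL in both sorts, with 9 of 12 markers called lower in GFP+ and 8 of 12 in GFP- cells. The fibroblast sum was lower in GFP- cells, with 9 of 10 markers called lower there and 1 in GFP+ cells. Cd74 and Pdgfrb are themselves on those marker lists, and the part of these markers' cells in the falls was not tested. Of the 5 members in the stroma and vessel list 2 rose and 1 fell in GFP+ cells, and 2 rose and 3 fell in GFP- cells.

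The genes at least 2-fold lower in GFP+ than in GFP- cells, in either genotype, can be set apart in the same way. There were 19 such members, with a median relative difference between genotypes of -0.20 in GFP+ and -1.02 in GFP- cells. The other 265 members had medians of 0.52 and 0.50. On the other autosomes the 859 genes of the first kind had medians of -1.23 and -1.27, and the 9544 others 0.03 and 0.04. Among the other genes those of chromosome 18 thus lay above their counterparts elsewhere by 0.49 and 0.45. The 19 members spread widely (SD 2.30 and 1.44), so their medians carry little weight, and the class was drawn from the same libraries.

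Among named genes, leaving out those with Gm, Rik or Mir symbols, the largest rises reached far beyond the chromosome-wide shift. Setbp1, which encodes the SET-binding protein (Gene ID 240427, chromosome 18, 78750378 to 79110444), was at 2.27, 2.94, 1.91 and 2.71 CPM in AKVPL GFP+ and 34.05, 32.1, 66.3 and 40.6 CPM in AKVPSL GFP+ libraries, 17.6-fold apart. Its GFP- levels went from 3.08, 3.64, 1.98 and 4.06 to 14.7, 16.03, 15.6 and 26.2 CPM (2.52 ± 0.27). Proc, the anticoagulant protein C (Gene ID 19123, chromosome 18, 32123126 to 32139570), was low in AKVPL and high in AKVPSL libraries of both sorts: 14.97, 15.1, 11.8 and 14.6 against 110.5, 109.8, 109 and 121 CPM in GFP+ and 6.94, 6.47, 6.04 and 5.16 against 96.2, 110.0, 100.4 and 88.8 CPM in GFP- cells. These were rises of 2.99 ± 0.11 and 3.99 ± 0.12 (edgeR adjusted p = 2.55e-13 and 1.33e-14). Afap1l1, an actin-associated protein, went from 76.4, 69.7, 64.98 and 64.5 to 481, 428, 362 and 432 CPM in GFP- cells (2.63 ± 0.10) and rose by 1.94 ± 0.10 in GFP+ cells. Fgf1, a fibroblast growth factor, went from 13.8, 10.6, 12.1 and 13.7 to 62.97, 53.7, 65.2 and 71.7 CPM in GFP+ cells (2.34 ± 0.15). Gramd3, a lipid-binding GRAM-domain protein, rose by 2.08 ± 0.11 and 1.79 ± 0.11, and Myo7b, a myosin of brush border microvilli, by 1.97 ± 0.16 and 1.28 ± 0.16. Among the 8 largest rises of such genes in GFP- cells were also Snrpd1, a core protein of the spliceosome (1.89 ± 0.17), the prefoldin subunit Pfdn1 (1.87 ± 0.11) and the signal peptidase subunit Sec11c (1.81 ± 0.12). Of the genes left out of this ranking, 1700066B19Rik rose by 2.18 ± 0.19 in GFP+ and 3.45 ± 0.21 in GFP- cells.

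Beside Cd74, the largest falls were in Chsy3 and Fhod3. Chsy3, a chondroitin sulphate synthase (Gene ID 78923, chromosome 18, 59175340 to 59411336), was at 45.1, 45.1, 42.5 and 38.6 CPM in AKVPL GFP+ and at 0.149, 0.402, 0.633 and 0.493 CPM in AKVPSL GFP+ libraries. In GFP- cells it was at 26.2, 18.6, 21.8 and 23.1 and 1.47, 0.334, 1.20 and 1.65 CPM. The differences were -6.72 ± 0.35 and -4.23 ± 0.30, and the AKVPSL GFP+ levels rest on 6, 12, 19 and 12 counts. Fhod3, a formin that builds actin filaments (Gene ID 225288, chromosome 18, 24708388 to 25133507), went from 29.7, 34.4, 26.00 and 28.3 to 1.76, 2.21, 4.36 and 3.37 CPM in GFP+ cells and from 28.3, 28.3, 27.2 and 27.4 to 1.87, 3.05, 3.72 and 3.35 CPM in GFP- cells. Its differences were -3.35 ± 0.24 and -3.22 ± 0.24, and the difference between the sorts was -0.13 ± 0.32 (edgeR adjusted p = 0.811). Jcad, a junction protein known from endothelial cells, had differences of -1.72 and -2.03. Its AKVPL levels overlapped between the sorts, with 16.2 to 19.3 CPM in GFP+ and 15.7 to 30.8 CPM in GFP- libraries. The endothelial marker sums there were 92.3 and 528 CPM. Chsy3, Fhod3 and Jcad were all lower in AKVPSL with no overlap in both sorts.

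Most members moved in the same direction in both sorts. Of the 284 members 168 rose in both sorts and 15 fell in both, where 18.9% and 20.5% of all genes tested did so. By their calls 30 rose in GFP+ cells only, 15 rose in GFP- cells only and 37 passed in neither, where the shares of all genes were 5.49%, 12.5% and 24.8%. Another 3 fell by their calls in GFP+ cells only (Reep5, Apbb3 and Dynap), 13 in GFP- cells only, and 3 rose in GFP+ and fell in GFP- cells (Dtna, Fem1c and Malt1). Of all genes 6.99%, 9.59% and 0.553% did so. The direction was the same in 244 members (85.9%), against 77.4% of the other autosomal genes. The members' shift above 0 in both sorts raises this share by itself, so it does not show a greater likeness between the sorts. Across the 284 genes, which are not independent, the genotype differences in the sorts had a Pearson correlation of 0.79 and a Spearman correlation of 0.71, and across the 10403 other autosomal genes of 0.85 and 0.75. GFP+ and GFP- cells may come from the same tumours, so these values describe likeness and are not independent repeats.

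A direct test of the difference between the sorts was passed by 78 members. The rise was greater, or the fall smaller, in GFP+ cells for 28 of them (9.86% of the members) and the reverse held for 50 (17.6%). In those directions 7.02% and 13.7% of all genes were called, and 8.01% and 18.2% of the other autosomal genes of at least 8 CPM. The balance among members depended on the scaling. The counts were 39 and 32 with DESeq2 size factors, 34 and 34 with library totals, 41 and 32 with the other-autosome scaling, and 81 and 11 with the epithelial scaling. Without AKVPSL GFP- replicate 4 the first count was 43, and without AKVPL GFP- replicate 4 the second was 33. Dtna, an alpha-dystrobrevin, rose in GFP+ cells from 7.47, 8.07, 9.88 and 11.4 to 27.5, 24.4, 40.2 and 30.3 CPM and was lower in GFP- cells (15.7, 17.2, 16.9 and 27.8 against 11.4, 12.2, 13.6 and 16.4 CPM, -0.52 ± 0.20). The GFP- call ended with AKVPL GFP- replicate 4 (-0.31), AKVPSL GFP- replicate 1 (-0.44) or its replicate 2 (-0.47) left out, and the difference between the sorts was 2.26 ± 0.28 (edgeR adjusted p = 3.71e-05). Malt1, a protease of NF-kappa-B signalling, rose from 75.7, 76.8, 72.6 and 67.1 to 84.7, 88.4, 116 and 94.5 CPM in GFP+ cells (0.39 ± 0.12) and fell from 93.4, 129, 124 and 101 to 67.04, 84.6, 63.7 and 69.98 CPM in GFP- cells (-0.65 ± 0.12). Its GFP+ call ended without AKVPSL GFP+ replicate 3 (0.29), and its difference between the sorts was 1.04 ± 0.17 (edgeR adjusted p = 0.000545). Fem1c, a substrate receptor of a ubiquitin ligase, had small opposite differences (0.39 and -0.39) whose groups overlapped in both sorts. Leaving out any 1 of 4 libraries of the compared groups ended its GFP+ call (0.27 to 0.38), and any 1 of 4 its GFP- call (-0.37 to -0.32). Arap3, a GTPase-activating protein of vessels, rose in GFP+ cells (1.74 ± 0.27) from 5.01 to 16.7 CPM, with a difference between the sorts of 2.30 ± 0.37 (edgeR adjusted p = 0.000572). Its GFP- difference of -0.56 missed the threshold and passed under 11 other settings, among them with AKVPL GFP- replicate 4 left out (-0.66) and with AKVPSL GFP+ replicate 2 left out (-0.55).

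**Figure D5:**
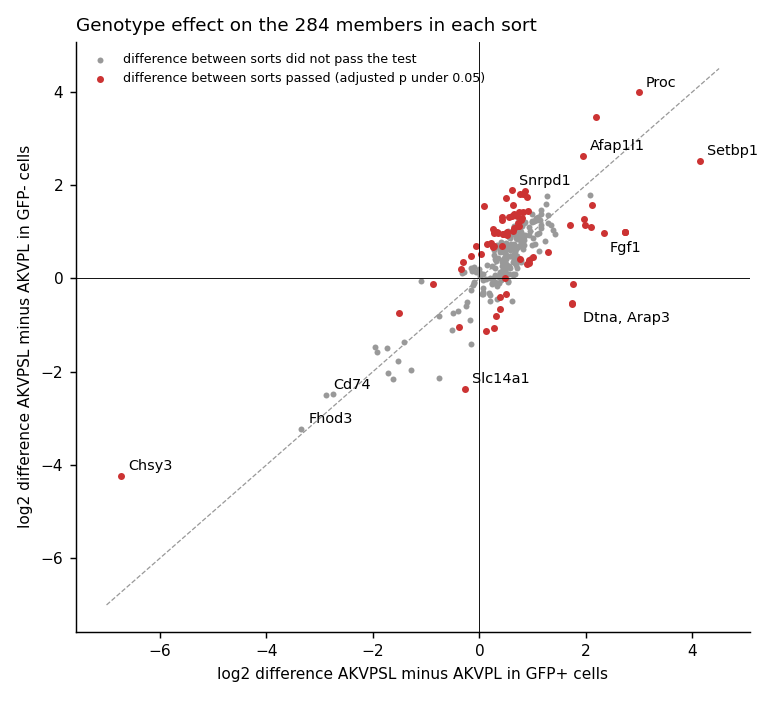
Log2 difference between AKVPSL and AKVPL for each of the 284 members in GFP+ cells (horizontal) and GFP- cells (vertical); red points passed the test of the difference between the sorts, and the dashed line marks equal differences. Most points lie in the upper right, 168 members rose in both sorts, and Chsy3 at -6.72 and -4.23 is the point farthest to the lower left.

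Between GFP+ and GFP- cells the members moved less than between genotypes, with medians relative to the other autosomal genes of 0.02 in AKVPL and 0.12 in AKVPSL. In AKVPL 91 members (32.0%) were higher and 35 (12.3%) lower in GFP+ cells, where 22.6% and 16.5% of all genes were called. Of the other autosomal genes of at least 8 CPM 31.1% and 12.4% were called, close to the shares of the members. The count of 91 was not stable: 51 were higher and 40 lower with DESeq2 size factors, 57 and 37 with library totals, 40 and 44 with the other-autosome scaling, and 12 and 65 with the epithelial scaling. It was 53 without AKVPSL GFP+ replicate 1, 55 without AKVPSL GFP- replicate 1 and 58 without AKVPSL GFP- replicate 4. In AKVPSL 101 members (35.6%) were higher and 50 (17.6%) lower, where 22.4% and 24.6% of all genes were called. Of the other autosomal genes of at least 8 CPM 28.6% and 23.9% were called there. Proc was 1.18 ± 0.11 higher in GFP+ cells of AKVPL (edgeR adjusted p = 4.64e-07), and Slc12a2 was 1.26 ± 0.13 higher (1.41e-06). Pdgfrb and Piezo2 were the members furthest below, with -3.93 ± 0.40 and -4.16 ± 0.46. In AKVPSL Slc14a1 (1.42 ± 0.16) and Fgf1 (1.15 ± 0.14) were higher in GFP+ cells, and Cd74 (-4.16 ± 0.48) and Reep5 (-0.77 ± 0.12) were lower. These comparisons use the same libraries as those between genotypes.

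The gap varied with the level of the genes. Members were split by their mean CPM into 3 classes of near equal size, and each class was set against other autosomal genes in the same range. The 95 members from 8.05 to 41.1 CPM had a gap of 0.41 in GFP+ and 0.17 in GFP- cells. The 94 members from 43.1 to 85.7 CPM had gaps of 0.58 and 0.58, and the 95 members above them 0.45 and 0.45. Of the genes that the level limit left out, 133 passed the low-count filter. In GFP+ cells 32 of them rose and 33 fell, in GFP- cells 41 and 39, and their gap to other autosomal genes of that level was 0.62 and 0.48. Of the clustered protocadherins 26 reached 8 CPM, with median differences of 2.73 and 0.98. They were left out by rule, but Gm37013, Gm38666 and Gm38667, predicted genes that span part of that cluster, are members, with 2.74 in GFP+ and 0.99 in GFP- cells each.

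Reads may be shared between genes that overlap, since the strand setting of the counting is not given. Of the members, 48 overlap another gene of the chromosome with at least 8 CPM. Among the genes named here these are Cd74, Fgf1, Fhod3, Kif20a, Atp5a1, Hars2, Dsg2, Apbb3, Gm37013, Gm38666 and Gm38667. Eno1b and Eif3j2 are copies of genes elsewhere in the genome and may hold reads of those. Without the 48 and these 2, a choice made after seeing the data, 234 members were left, of which 171 rose and 14 fell in GFP+ cells and 149 rose and 26 fell in GFP- cells. Their gap to the other autosomal genes was 0.52 and 0.42.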

How the data were processed

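RNA was sequenced from 16 sorted cell samples, 4 per group. Per the file headers, each deposited file gives the authors' read count per Entrez gene ID beside an RPKM value (scaled by gene length and sequencing depth). GSNAP, an aligner, and the build GRCm38 are listed with no role, per the submitters' processing notes. Counter, annotation and strand setting: not given in the sources used here. Members, role lists and the other-autosome and epithelial scalings were chosen with earlier results of these data known. Gene IDs were matched to RefSeq for symbols and GRCm38 positions (31049 of 36528 matched).

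Counts were tested with edgeR 4.0.16 (R 4.3.3): genes kept by filterByExpr, TMM scaling, 1 mean per group over all 16 libraries, robust quasi-likelihood F tests, Benjamini-Hochberg adjustment over 18072 genes and a threshold of 0.05. Differences are log2, AKVPSL minus AKVPL or GFP+ minus GFP-, with SE; the difference between the sorts is the GFP+ minus the GFP- genotype effect. CPM values are TMM-scaled, and library medians used log2(CPM + 0.5). Tables and figures used Python 3.11.15, pandas 2.3.3 and matplotlib 3.10.9. The fit was also run on simulated counts with the same spread for all genes and few genes changed, in 1 group only. In these data many genes were called, so that run says little of the calls made here. No pair of replicates agreed within sampling noise.

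Alternatives were DESeq2 1.42.0 (its size factors, and its Wald test), library totals, scaling on the other autosomal genes (other-autosome) or on 13 epithelial markers (epithelial), no low-count filter, limma 3.58.1 on log2(RPKM + 1) and log2(RPKM + 0.1), only the groups compared, a replicate block, member minimums of 4 and 16 CPM, and leaving out each library. Leaving out overlapping genes was added after seeing the data. Replicate numbers were checked for pairing by the correlation of deviations from group means: it ran from -0.09 to 0.31 between genotypes, so these were not treated as paired. Between the sorts it ran from 0.15 to 0.34 in AKVPL, where all 4 pairs exceeded 0.1, and from 0.07 to 0.47 in AKVPSL. The main tests between the sorts used no pairing. With a replicate block 96 members were higher and 38 lower in GFP+ than in GFP- cells of AKVPL, and 111 and 55 in AKVPSL. For the difference between the sorts the block gave 35 higher and 55 lower.

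Genes were named by a rule: Apc, Smad4 and their 5 neighbours on each side, the 8 largest called rises and falls per genotype comparison, up to 4 members of each role list, members called in opposite directions, and the 5 smallest adjusted p each way for the other comparisons; genes with Gm, Rik or Mir symbols were left out of rankings. The text names a subset of these, and 1 is not reported here. The predicted genes over the protocadherin cluster, genes just outside the CPM minimum, 1700066B19Rik, Apbb3 and Fem1c were named after their values were seen.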

Additional observations from a re-analysis of the deposited data

Results flagged for a closer look

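For 70 genes, nearly all named above, and the library medians of all members, each group of 4 libraries was checked for a library far from the other 3. Of 284 groups checked, 17 had one, and chance gives such a flag in about 1 of 20 groups. In AKVPL GFP+ replicate 3 Cdc25c (7.46 CPM) and Proc (11.8 CPM) stood apart. In AKVPL GFP+ replicate 1 Fem1c (58.4 CPM) stood apart. In AKVPSL GFP+ replicate 3 Tcf4 (160.5 CPM) stood apart. In AKVPSL GFP+ replicate 1 Spry4 (139 CPM) stood apart. In AKVPSL GFP+ replicate 4 Proc (121 CPM) stood apart. In AKVPL GFP- replicate 1 Smad7 (83.96 CPM) and Nedd4l (49.3 CPM) stood apart. In AKVPL GFP- replicate 4 Nr3c1 (73.8 CPM), Mapk4 (25.7 CPM), Dtna (27.8 CPM) and Tnfaip8 (33.1 CPM) stood apart. In AKVPSL GFP- replicate 2 Tcf4 (115 CPM) and Atp5a1 (1193 CPM) stood apart. In AKVPSL GFP- replicate 3 Rps14 (841 CPM) stood apart. In AKVPSL GFP- replicate 4 Polr2d (63.1 CPM) and Setbp1 (26.2 CPM) stood apart.

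The genotype effect differed between GFP+ and GFP- cells, by the edgeR test of that difference, in 29 of these genes. Over all genes tested 7.02% were called higher and 13.7% lower in that comparison, and part of the 70 were chosen by the p of this difference, so the count says nothing of the members as a whole. It was higher in GFP+ cells for 14 of them: Arap3 (2.30), Dtna (2.26), Slc14a1 (2.09), Setbp1 (1.62), Fgf1 (1.35), Nrep (1.26), Malt1 (1.04), Spry4 (1.003), Nr3c1 (0.85), Fem1c (0.79), Myo7b (0.69), Gata6 (0.65), Mapre2 (0.54) and Mcc (0.53), as log2 differences between the effects. It was lower in GFP+ cells for 15: Chsy3 (-2.49), Snrpd1 (-1.29), Sec11c (-1.04), Pfdn1 (-1.01), Cdc25c (-1.0), Proc (-0.995), Srp19 (-0.93), Tnfaip8 (-0.81), Reep5 (-0.74), Afap1l1 (-0.69), Kif20a (-0.63), Polr2d (-0.61), Nars (-0.49), Hars2 (-0.48) and Ctnna1 (-0.44). With scaling on the epithelial markers the calls for Reep5 (-0.43), Cdc25c (-0.68), Kif20a (-0.31), Polr2d (-0.28), Nars (-0.15), Hars2 (-0.15), Afap1l1 (-0.35) and Ctnna1 (-0.09) ended. The call for Hars2 ended under 17 settings in all, the epithelial scaling among them. Of these, 9 left out 1 library, with values from -0.49 to -0.38 in those 9. In AKVPL the libraries left out were GFP+ replicates 1 and 4 and GFP- replicates 2, 3 and 4. In AKVPSL they were GFP+ replicates 1 and 3 and GFP- replicates 1 and 2. The call for Myo7b ended under 11 settings, each leaving out 1 library (AKVPL GFP+ replicate 1, 2 or 4, AKVPL GFP- replicate 2, 3 or 4, AKVPSL GFP+ replicate 1, 3 or 4, or AKVPSL GFP- replicate 2 or 3), with values from 0.55 to 0.71.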

How the results depend on the processing

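The shift against the other autosomal genes kept its direction in every alternative run, from 0.46 to 0.56 in GFP+ and from 0.40 to 0.51 in GFP- cells. The runs with another scaling could not test it, since scaling a library moves the members and the other genes alike. The shift was 0.56 in GFP+ cells as a difference of means. In GFP- cells it was 0.50 without the 19 members at least 2-fold lower in GFP+ cells and 0.51 with the clustered protocadherins. Counts of members that rose ran from 171 to 213 in GFP+ and from 132 to 191 in GFP- cells. With a replicate block 210 rose and 21 fell in GFP+ cells, 188 and 35 in GFP- cells, with shifts of 0.51 and 0.44, and the block moved no count by over 1.5 times. Members that fell in GFP+ cells numbered 29 with a minimum of 4 CPM and 11 with 16 CPM, and those that fell in GFP- cells 54 with the epithelial scaling.

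In the GFP+ against GFP- comparison of AKVPL, 51 members were higher with DESeq2 size factors, 57 with library totals, 40 with the other-autosome and 12 with the epithelial scaling, 44 with no low-count filter, 56 with the DESeq2 Wald test, 50 and 51 on log2(RPKM + 1) and log2(RPKM + 0.1), 56 with only the groups compared and 53 to 101 with 1 library left out, and 65 were lower with the epithelial scaling. For the difference between the sorts, 81 were higher with the epithelial scaling, 47 with the DESeq2 Wald test, 44 on log2(RPKM + 1) and 25 to 43 with 1 library left out. Lower were 32 with DESeq2 size factors, 32 with the other-autosome and 11 with the epithelial scaling, 28 with no low-count filter, 32 and 32 on the RPKM scales and 33 to 51 with 1 library left out. The cause was not tested.

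Scaling moved the median of all genes in GFP- cells by -0.11 (library totals), -0.15 (other-autosome) and -0.32 (epithelial). Calls on single genes are limited by 4 libraries per group and, for Chsy3 in AKVPSL, by few counts.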
